A study of Mus musculus with 6 samples.

Results

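The genes described here are 10 components of bone morphogenetic protein (Bmp) signalling, measured in cultured mouse spermatogonial stem cells. They comprise the ligand Bmp4, its type I receptor Bmpr1a, the inhibitory Smads Smad6 and Smad7, the Id genes Id1, Id2 and Id3, and the transcription factors Msx1, Msx2 and Foxf1. They were chosen by name, and all 10 had a value among the 18194 genes of the series. For each gene the value is that of the probe set with exactly 1 gene symbol and the highest mean over the 6 arrays. Other probe sets, which 6 of the 10 genes had, served as a check. Bmp4, Smad6, Id1 and Id3 had no other probe set. The series compared 3 kinds of cell on 2 Affymetrix arrays each. These were multipotent cells (mSSC), cells of an intermediate state (iSSC) and unipotent germ-line stem cells (SSC), each kind picked by the shape of its colonies. All 3 kinds came from the testes of male ICR mice aged 3 to 5 days and were grown on growth-arrested embryonic fibroblasts, which remain in the culture. The medium was serum-free GS medium or KSR-mES medium, and clumps came from passages 0 to 1 and 9 to 10. The sources used here do not tie a medium or a passage to an array. Nothing in the labels says that the 2 arrays of a kind came from different animals or cultures. The p-values therefore reflect array-to-array spread alone, and that spread may be technical.

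Markers of pluripotent cells bore out the mSSC label. The median log2 level of 8 pluripotency markers was 11.81 and 12.47 in mSSC, 7.89 and 8.07 in iSSC, and 6.55 and 7.64 in SSC. Spermatogonial markers, 9 measured and Id4 among them, had medians of 7.79 and 7.36 in mSSC, 10.52 and 10.66 in iSSC, and 9.56 and 10.14 in SSC. In mSSC against SSC limma called 8 of them lower and 1, Etv5, higher, beside 10.6% of all genes lower and 8.22% higher. Etv5 was at 11.45 and 11.22 in mSSC and at 9.18 and 9.65 in SSC. Markers of other cells were detected too, among them those of fibroblasts, the kind of cell used as feeder. The median of 10 fibroblast markers was 8.02 and 9.47 in mSSC, 9.84 and 10.48 in iSSC, and 12.77 and 11.86 in SSC. The median of 10 macrophage markers was 5.06 and 4.87 in mSSC, 9.38 and 8.73 in iSSC, and 12.22 and 11.13 in SSC. Levels are log2 signals, their lower quartile lay between 4.23 and 4.38 on the arrays, and a level near it is close to background. Levels of different probe sets are not comparable, so each gene is compared only with itself.

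Bmp ligands bind a pair of type I and type II receptors on the cell surface, among them Bmpr1a and Bmpr2, and the active receptor phosphorylates Smad1, Smad5 and Smad9. These join Smad4 and enter the nucleus, where Id1, Id2 and Id3 are among the best known direct targets. Id proteins lack a DNA-binding domain and hold E proteins such as Tcf3 and Tcf12 away from DNA, while Smad6 and Smad7 are induced by the pathway and damp it. In the mouse, Bmp4 helps keep embryonic stem cells undifferentiated, induces the germ line in the epiblast, and has been linked to the differentiation of spermatogonia through Bmpr1a.

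The sequences before the start sites of 4 of these genes are shown because their levels ordered the kinds in opposite ways: Bmp4, which was highest in mSSC, and Smad6, Msx2 and Id3, whose means were highest in iSSC and lowest in mSSC. Each is the 250 bases before the start site in RefSeq's promoter table, 5′ to 3′ on the gene's strand, on GRCm38.p6. Capitals mark the Smad box GTCT on either strand (written AGAC where it lies on the other). The positions are chr14:46390670-46390919 on the minus strand for Bmp4, chr9:64022060-64022309 on the minus strand for Smad6, chr13:53472781-53473030 on the minus strand for Msx2, and chr4:136143572-136143821 on the plus strand for Id3.
Bmp4: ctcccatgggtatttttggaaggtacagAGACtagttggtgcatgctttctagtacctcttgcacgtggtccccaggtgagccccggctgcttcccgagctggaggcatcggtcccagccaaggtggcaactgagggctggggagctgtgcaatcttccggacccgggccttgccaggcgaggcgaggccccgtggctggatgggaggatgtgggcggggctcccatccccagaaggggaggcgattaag
Smad6: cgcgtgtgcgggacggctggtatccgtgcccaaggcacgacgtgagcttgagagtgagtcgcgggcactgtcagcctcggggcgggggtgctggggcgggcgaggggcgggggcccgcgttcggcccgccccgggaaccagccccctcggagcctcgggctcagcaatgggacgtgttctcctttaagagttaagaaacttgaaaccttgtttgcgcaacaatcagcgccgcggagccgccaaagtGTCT
Msx2: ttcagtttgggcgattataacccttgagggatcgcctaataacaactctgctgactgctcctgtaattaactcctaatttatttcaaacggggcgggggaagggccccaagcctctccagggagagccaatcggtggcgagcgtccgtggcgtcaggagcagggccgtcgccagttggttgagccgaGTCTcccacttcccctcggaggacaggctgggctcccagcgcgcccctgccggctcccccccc
Id3: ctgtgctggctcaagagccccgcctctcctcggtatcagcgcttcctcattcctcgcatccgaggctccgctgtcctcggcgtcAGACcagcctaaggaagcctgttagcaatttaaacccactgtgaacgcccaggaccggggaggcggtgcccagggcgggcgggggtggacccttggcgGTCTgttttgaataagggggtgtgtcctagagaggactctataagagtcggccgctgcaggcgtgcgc
The box began 222 bases before the start site in Bmp4, 4 before it in Smad6, 63 before it in Msx2, and 166 and 68 before it in Id3. RefSeq's gene bounds for Smad6 reach further out than that start site, so 26 bases of its window, the Smad box among them, lie inside the annotated gene. A box this short was held by 82.9% of 32851 promoter windows of this length, so its presence here is a description only. The longer GC-rich Smad element GGCGCC, found in 9.59% of windows, had no match in these 4. Among the 7 genes with a window searched it matched once in Bmpr1a, whose window lies wholly inside the annotated gene, and once in Id2. The E-box CANNTG, the site of E proteins and their bHLH partners, was in 66.2% of windows. It matched 3 times in Bmp4, once in Msx2, and not in Smad6 or Id3.

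Bmp4 was higher in mSSC than in either other kind. Smad6, Msx2 and Foxf1, known targets of the pathway, were lower in mSSC than in iSSC, and of these Foxf1 alone was called lower than in SSC. Smad7, also induced by the pathway, was higher in mSSC than in SSC, a call kept in only 6 of 14 other settings. None of Id1, Id2 and Id3 passed the test in any comparison. In mSSC against SSC 2 of the 10 genes rose (Bmp4 and Smad7) and 1 fell (Foxf1), where limma called 18.8% of all genes at an adjusted p under 0.05, 8.22% higher and 10.6% lower. In iSSC against SSC 1 fell (Bmpr1a) and none rose, where 2.09% of all genes were called, 0.225% higher and 1.87% lower, and 4 of the 10 had an unadjusted p under 0.05. In mSSC against iSSC 2 rose (Bmp4 and Bmpr1a) and 3 fell (Smad6, Msx2 and Foxf1), where 17.1% of all genes were called, 7.53% higher and 9.60% lower. Of the 6 Bmpr1a probe sets only 2 were higher in mSSC than in iSSC. The arrays of the 2 kinds compared did not overlap for 6 of the 10 genes in mSSC against SSC, where this held for 58.6% of all genes. The same was seen for 8 of the 10 in iSSC against SSC (50.0% of all genes) and for 9 of the 10 in mSSC against iSSC (62.8%). The median difference of the 10 genes was -0.45 in mSSC against SSC, 0.44 in iSSC against SSC and -0.96 in mSSC against iSSC, beside 0.08, 0.10 and -0.01 over all genes. The mean of iSSC was the highest of the 3 in 6 of the 10 genes, beside 34.1% of all genes. The comparisons share arrays, so their values are not independent of each other.

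**Figure D1:**
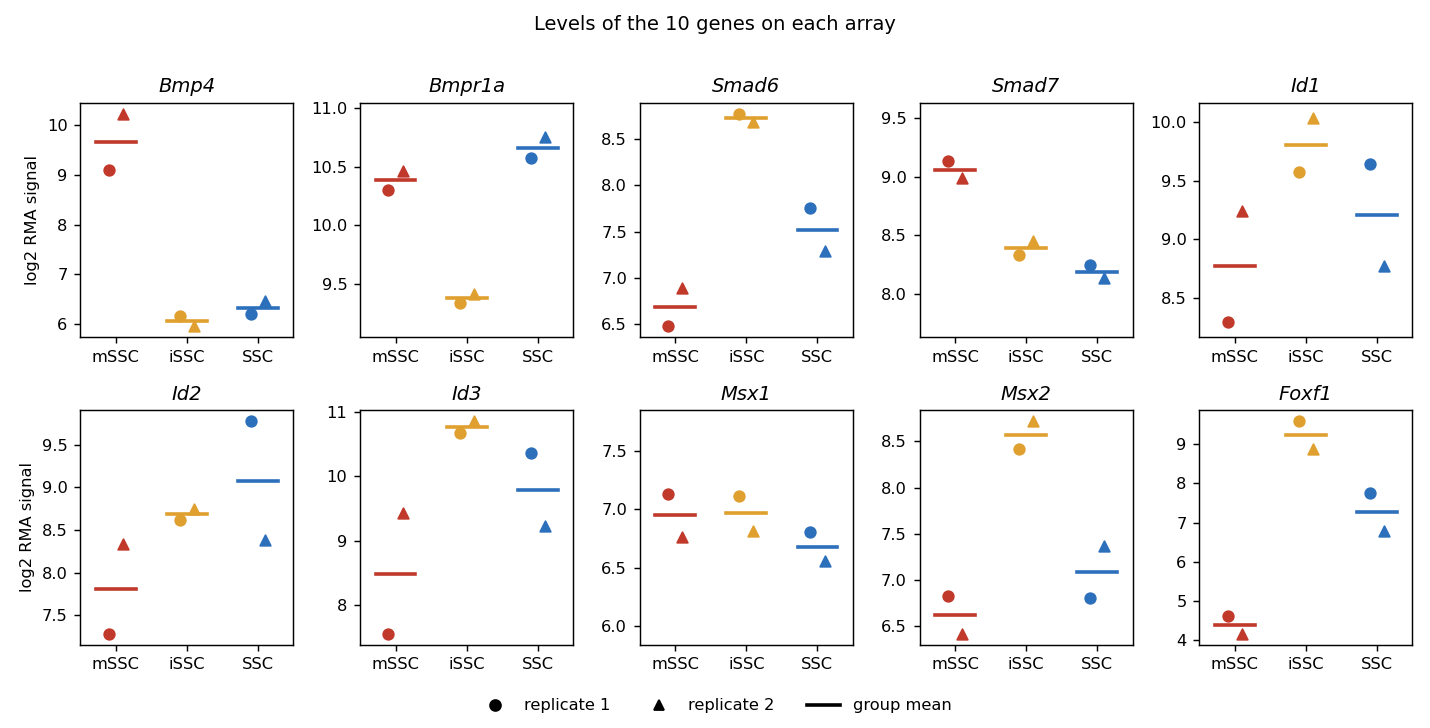
Log2 RMA signal (y axis, a separate scale for each gene) of the 10 genes on each array, by kind of cell (x axis); points are arrays and lines are means of 2 arrays. Bmp4 sits at 9.09 and 10.24 in mSSC and at 6.46 or below on the other 4 arrays, whereas Smad6, Msx2 and Foxf1 are highest on both iSSC arrays.

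**Figure D2:**
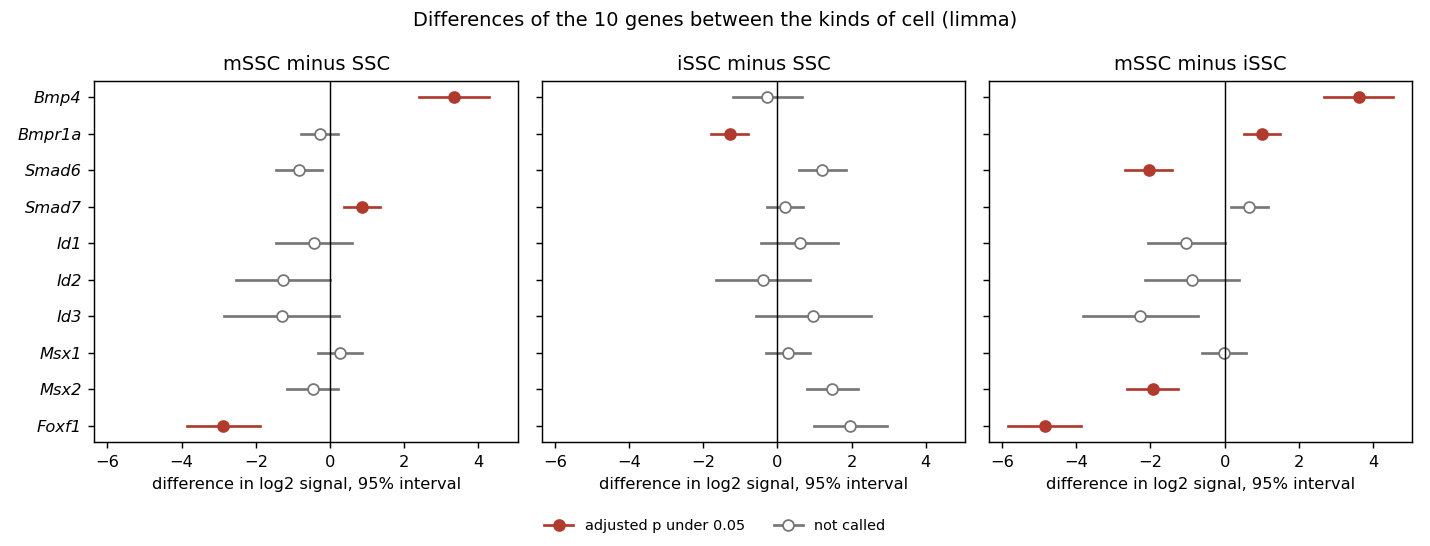
Differences of group means in log2 signal (x axis) for the 10 genes (y axis) in the 3 comparisons, with 95% intervals from limma; filled points passed an adjusted p under 0.05 over all 18194 genes. The interval of Bmp4 lies far above 0 in both comparisons of mSSC, and those of Id1, Id2 and Id3 are wide.

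Bmp4, the ligand, had log2 levels of 9.09 and 10.24 in mSSC, 6.16 and 5.95 in iSSC, and 6.19 and 6.46 in SSC. Both mSSC arrays stood above every other array, and the mSSC pair differed from each other by more than the other pairs did. The group means were 9.67 ± 0.81 in mSSC, 6.05 ± 0.15 in iSSC and 6.32 ± 0.19 in SSC (SD, n = 2 each). Bmp4 rose 10.1-fold in mSSC against SSC (3.34 ± 0.39 in log2, SE, limma adjusted p = 0.0038), the 113th largest increase among 18194 genes. Against iSSC it rose 12.2-fold (3.61 ± 0.39, adjusted p = 0.0034), the 79th largest. The call held in 14 of 14 other settings in each of these comparisons, 6 of them leaving out an array. These are not 14 separate checks, as leaving out either array of the third kind repeats the 4-array fit. Bmp4 has only 1 probe set, so averaging probe sets could not change its difference. Between iSSC and SSC the difference was -0.27, within the spread of the arrays, with a 95% interval from -1.20 to 0.66 (adjusted p = 0.80). A change in the number of cells that make a transcript and a change in the amount per cell cannot be told apart in these bulk samples. Pluripotency markers rose in the same arrays while fibroblast and macrophage markers were lower there, and their part in this and the following differences was not tested.

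Bmpr1a, the type I receptor, had levels of 10.30 and 10.46 in mSSC, 9.34 and 9.41 in iSSC, and 10.57 and 10.75 in SSC with its brightest probe set. On that probe set both iSSC arrays were lowest. It fell 2.44-fold in iSSC against SSC (-1.29 ± 0.20, limma adjusted p = 0.040) and was 2.01-fold higher in mSSC than in iSSC (1.01 ± 0.20, adjusted p = 0.021), the second call being lost without any 1 of the 4 mSSC and iSSC arrays. The other 5 probe sets of Bmpr1a did not bear this out. Their iSSC minus SSC differences lay between -0.50 and 0.32, and none passed the test. Of the 6 probe sets only 2 were higher in mSSC than in iSSC, the brightest and another between 4.32 and 4.91, near background. With the mean of all 6 taken, the mSSC minus iSSC difference turned to -0.23 (adjusted p = 0.50). The iSSC minus SSC difference was then -0.30 (adjusted p = 0.50). The mSSC minus SSC difference was -0.28 on the brightest probe set (adjusted p = 0.40), and 5 of 6 probe sets were lower in mSSC. On 2 of these the fall passed when they stood for the gene, at -1.002 (adjusted p = 0.021) and -0.93 (adjusted p = 0.033). The replicate block also ended the call in iSSC against SSC (adjusted p = 0.056), as did leaving out any 1 of the 4 arrays compared (adjusted p from 0.064 to 0.34).

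**Figure D3:**
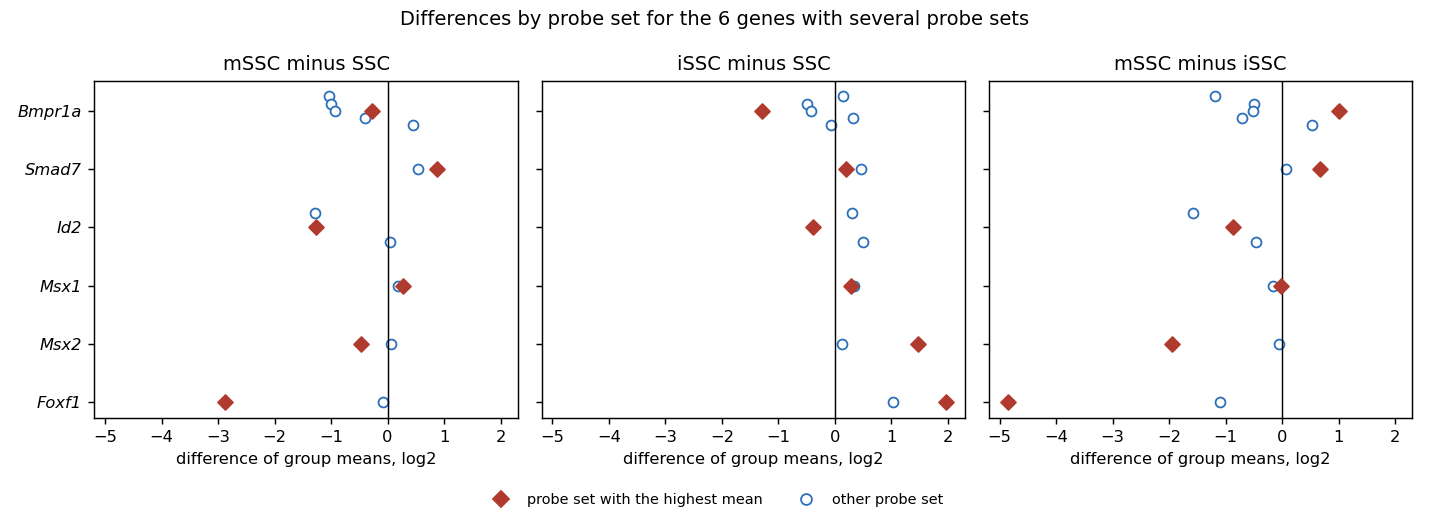
Differences of group means in log2 signal (x axis) by probe set for the 6 genes with several probe sets (y axis); diamonds are the probe set with the highest mean and circles the others. The Bmpr1a diamond lies apart from the circles, at -1.29 in iSSC against SSC and 1.01 in mSSC against iSSC.

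Of the inhibitory Smads, Smad6 fell in mSSC against iSSC and Smad7 rose in mSSC against SSC. Smad6, which blocks Bmp signals at the receptor and at Smad1, had levels of 6.47 and 6.89 in mSSC, 8.78 and 8.68 in iSSC, and 7.76 and 7.29 in SSC. The 3 kinds did not overlap, with iSSC highest and mSSC lowest. Smad6 was 4.13-fold lower in mSSC than in iSSC (-2.05 ± 0.26, limma adjusted p = 0.0054), and this call was lost in 1 of 14 other settings, without iSSC replicate 1 (adjusted p = 0.057). Against SSC neither other kind passed the test, at 1.21 ± 0.26 in iSSC (adjusted p = 0.086) and -0.84 ± 0.26 in mSSC (adjusted p = 0.074). Smad7, which also inhibits Tgf-beta receptors, had levels of 9.13 and 8.99 in mSSC, 8.33 and 8.45 in iSSC, and 8.25 and 8.13 in SSC. Both mSSC arrays were above the rest. Smad7 rose 1.83-fold in mSSC against SSC (0.87 ± 0.20, adjusted p = 0.031), but the call was lost when any 1 of the 6 arrays was left out (adjusted p from 0.062 to 0.11), on 4 arrays and with a prior variance that follows the level. Its difference was 0.67 ± 0.20 in mSSC against iSSC (adjusted p = 0.071) and 0.20 ± 0.20 in iSSC against SSC (adjusted p = 0.69). The second Smad7 probe set gave 0.53, 0.07 and 0.46 for the same comparisons, with the same signs.

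None of the 3 Id genes passed the test, and each was lowest on average in mSSC. Id1 had levels of 8.30 and 9.24 in mSSC, 9.57 and 10.03 in iSSC, and 9.64 and 8.77 in SSC. The iSSC arrays were above the mSSC arrays, and SSC overlapped with both. Id1 was at -1.03 ± 0.43 in mSSC against iSSC (limma adjusted p = 0.16) and at -0.44 in mSSC against SSC (95% interval -1.47 to 0.60, adjusted p = 0.53).

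Id3 had the widest range of the 3, with levels of 7.55 and 9.42 in mSSC, 10.67 and 10.85 in iSSC, and 10.36 and 9.22 in SSC. The iSSC arrays agreed closely and were highest, and the mSSC arrays differed by more than 3-fold. In mSSC against iSSC Id3 was at -2.27 ± 0.64 (limma adjusted p = 0.059), the 450th lowest difference of all genes. It passed among the brighter genes only (adjusted p = 0.040), with a prior variance that follows the level (adjusted p = 0.045) and without mSSC replicate 2 (-3.21, adjusted p = 0.017). In mSSC against SSC it was at -1.30 (95% interval -2.85 to 0.25, adjusted p = 0.22), and in iSSC against SSC at 0.97 (-0.58 to 2.52, adjusted p = 0.52).

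Id2 had levels of 7.28 and 8.34 in mSSC, 8.62 and 8.75 in iSSC, and 9.78 and 8.38 in SSC. The mSSC arrays were below all 4 others, by little for replicate 2. Id2 was at -1.27 ± 0.53 in mSSC against SSC (limma adjusted p = 0.15) and -0.88 ± 0.53 in mSSC against iSSC (adjusted p = 0.33). A second, similarly bright probe set of Id2 gave -1.59 in mSSC against iSSC and passed when it stood for the gene (adjusted p = 0.032). For iSSC against SSC the sign depended on the probe set, from -0.39 to 0.51, and none of the 3 passed. Across the Id genes replicate 1 was below replicate 2 in mSSC and above it in SSC, and so was the median of the fibroblast markers (8.02 and 9.47 in mSSC, 12.77 and 11.86 in SSC). Between kinds the fibroblast median was lower in iSSC (9.84 and 10.48) than in SSC. The means of Id1 and Id3 were higher in iSSC than in SSC, and that of Id2 was lower. The part of feeder cells in these differences was not tested.

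Among the other targets, Foxf1 covered the widest range of the 10 genes. This forkhead factor of mesoderm and of mesenchyme had levels of 4.61 and 4.16 in mSSC, 9.59 and 8.88 in iSSC, and 7.76 and 6.78 in SSC. The 3 kinds did not overlap. The mSSC arrays were near background, so their differences are limits, given without a fold or a rank. Foxf1 fell in mSSC against SSC (-2.88 in log2, limma adjusted p = 0.0071) and against iSSC (-4.85, adjusted p = 0.0019). Both calls held in 13 of 13 other settings. Its iSSC minus SSC difference was 1.97 ± 0.41 (adjusted p = 0.077), the 43rd largest in that direction, and the replicate block brought it under the threshold (adjusted p = 0.049). The second Foxf1 probe set had levels of 6.31 and 6.38 in mSSC, 7.77 and 7.12 in iSSC, and 6.61 and 6.23 in SSC. It gave -0.08 for mSSC against SSC (adjusted p = 0.88), -1.10 for mSSC against iSSC and 1.02 for iSSC against SSC, so both probe sets were highest in iSSC, and the fall in mSSC against SSC was seen on the brighter one alone.

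Msx2, a homeobox repressor and Bmp target in limb and skull, had levels of 6.83 and 6.42 in mSSC, 8.42 and 8.72 in iSSC, and 6.81 and 7.37 in SSC. Both iSSC arrays stood above the other 4, while mSSC and SSC overlapped. Msx2 was 3.85-fold lower in mSSC than in iSSC (-1.94 ± 0.29, limma adjusted p = 0.0082), a call lost without iSSC replicate 1 (adjusted p = 0.057) or iSSC replicate 2 (adjusted p = 0.072). Against SSC the iSSC arrays were higher by 1.48 ± 0.29 (adjusted p = 0.062), the 142nd largest difference in that direction. Its second probe set lay between 3.73 and 3.91 on the 6 arrays, below the lower quartile of each. Msx1, its close relative, had levels of 7.13 and 6.76 in mSSC, 7.11 and 6.82 in iSSC, and 6.80 and 6.55 in SSC. These levels spanned only 0.58, and no Msx1 difference passed, with 95% intervals of -0.32 to 0.86 in mSSC against SSC, -0.30 to 0.88 in iSSC against SSC and -0.61 to 0.57 in mSSC against iSSC.

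The rest of the pathway was read from the same fit, 67 measured genes of 72 listed. Of these 2 rose and 14 fell in mSSC against SSC, beside 8.22% of all genes higher and 10.6% lower. In iSSC against SSC 2 fell and none rose, and in mSSC against iSSC 2 rose and 10 fell, totals near the 2.09% and 17.1% of all genes called. Their median differences were -0.20, 0.24 and -0.34. These counts moved with single arrays. The 16 calls in mSSC against SSC became 5 when mSSC replicate 1 was left out, 7 when SSC replicate 1 was, and 9 on 4 arrays or with either array of iSSC left out. The 12 calls in mSSC against iSSC became 2 or 3 when iSSC replicate 1 or 2 was left out and 7 when mSSC replicate 1 was, but 21 when either SSC array was.

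Of 10 other Bmp ligands none rose in any comparison. Over all genes 8.22% were higher in mSSC against SSC, 0.225% in iSSC against SSC and 7.53% in mSSC against iSSC. In mSSC 1 of the 10 fell against SSC and 2 against iSSC, beside 10.6% and 9.60% of all genes lower. Bmp6 had levels of 6.23 and 5.79 in mSSC, 7.93 and 7.80 in iSSC, and 7.42 and 7.20 in SSC, the opposite order to Bmp4 between mSSC and the rest. It fell in mSSC against SSC (-1.30 ± 0.24, limma adjusted p = 0.016) and against iSSC (-1.85 ± 0.24, adjusted p = 0.0056). The first call was lost without SSC replicate 1 or mSSC replicate 2 and the second without iSSC replicate 1. Bmp2 was at 4.33 and 5.50 in mSSC, 6.52 and 7.30 in iSSC, and 5.48 and 6.39 in SSC, and was lower in mSSC than in iSSC (limma adjusted p = 0.043). No fold is given for Bmp2, as mSSC replicate 1 was at background, and its call was lost without mSSC replicate 1 or either iSSC array (adjusted p up to 0.22). The ligand list had a median difference of 0.25 between mSSC and SSC and of -0.12 between mSSC and iSSC.

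Among 10 other receptors and co-receptors 3 fell in mSSC against SSC, beside 10.6% of all genes lower. The list median was -0.85. Rgmb, a membrane-bound co-receptor for Bmp ligands, was at 6.93 on both mSSC arrays, 8.87 and 9.05 in iSSC, and 9.05 and 8.92 in SSC. It fell by 2.05 ± 0.20 against SSC (limma adjusted p = 0.0024) and by 2.03 ± 0.20 against iSSC (adjusted p = 0.0027), calls that held in 14 of 14 settings each. Rgma (-1.89 ± 0.44, limma adjusted p = 0.032) and the type II receptor Acvr2a (-0.88 ± 0.22, limma adjusted p = 0.037) were also lower in mSSC than in SSC. These calls held in only 6 of 13 and 6 of 14 other settings, and the other Acvr2a probe set was at 0.04. The type II receptor Bmpr2 had levels of 9.35 and 8.68 in mSSC, 8.04 and 8.14 in iSSC, and 10.81 and 9.89 in SSC. Of these 10 it alone was called in iSSC against SSC (-2.26 ± 0.37, adjusted p = 0.043). The call was lost in 6 of 14 other settings: the replicate block, quantile normalization, the mean of all probe sets (-0.91), and without SSC replicate 1 or either iSSC array.

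Of 16 extracellular antagonists 5 fell in mSSC against SSC and none rose, beside 10.6% of all genes lower and 8.22% higher, and the list median was 0.03. Bmper, a secreted modulator that binds Bmp ligands, had levels of 3.99 and 6.32 in mSSC, 8.88 and 9.01 in iSSC, and 9.22 and 8.89 in SSC. Bmper fell in mSSC against SSC (limma adjusted p = 0.013) and against iSSC (adjusted p = 0.015), without a size given because mSSC replicate 1 was at background. Its first call was lost without SSC replicate 1 and its second without either iSSC array. Fstl3, an inhibitor of activins and of some Bmp ligands, was at 7.08 and 6.97 in mSSC, 7.95 and 8.09 in iSSC, and 8.99 and 8.91 in SSC. It fell by 1.92 ± 0.20 against SSC (adjusted p = 0.0028). Nbl1 (-1.69 ± 0.36), Fstl1 (-1.46 ± 0.37) and Chrdl1 were the others lower in mSSC than in SSC. The call held in 9 of 14 other settings for Nbl1 and in 7 of 14 for Fstl1, which lost it under the replicate block and in 5 of 6 fits with an array left out (adjusted p up to 0.14). Chrdl1 was at background in mSSC (4.21 and 4.10), against 6.18 and 5.38 in SSC, and lost its call without either mSSC array. Nog, which encodes noggin, lay between 3.84 and 4.74 on the 6 arrays, near background throughout. Fibroblast markers were lower in the same mSSC arrays (median difference -3.20 against SSC, 7 of 10 called). Markers of macrophages (-6.04, 10 of 10 called lower) and of Sertoli cells (-2.34, 8 of 10) were lower there too. So were 3 of 6 markers of peritubular smooth muscle, whereas 2 of 6 endothelial markers were called higher. The part of any of these cells in the fall of the antagonists was not tested.

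Of the Smads that carry the signal, Smad1 and Smad4 passed the test in no comparison, and Smad5 in 1. Smad1 was at -0.35 ± 0.31 in mSSC against SSC (limma adjusted p = 0.48) and Smad4 at -0.32 ± 0.30 (adjusted p = 0.51). Smad5 had levels of 7.53 and 7.63 in mSSC, 8.38 and 8.54 in iSSC, and 8.25 and 8.04 in SSC, and was lower in mSSC than in iSSC (-0.88 ± 0.21, adjusted p = 0.034). The call of Smad5 was lost in 5 of 14 other settings, 4 of them without an mSSC or an iSSC array. In the list of 13 Smads and intracellular regulators 2 fell in mSSC against SSC, beside 10.6% of all genes lower. In mSSC against iSSC 1 rose and 2 fell, beside 7.53% higher and 9.60% lower. Tob2, which belongs to a family of antiproliferative proteins, was lower in both (-1.53 ± 0.28 and -1.95 ± 0.28), though not without mSSC replicate 1 in the first or either iSSC array in the second. Smurf1, a ubiquitin ligase that targets Smads, was the other gene lower in mSSC than in SSC (-1.33 ± 0.34, limma adjusted p = 0.043). This call held in only 5 of 14 other settings, and the other Smurf1 probe set went the other way (0.37). Skil, a Smad corepressor, was higher in mSSC than in iSSC on its brighter probe set (1.70 ± 0.31) but lower on the other (-1.40), and lost its call without any 1 mSSC or iSSC array. Bambi, a pseudoreceptor that damps the pathway, was at 0.94 ± 0.32 in mSSC against SSC (adjusted p = 0.094).

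Of 15 other target genes 2 rose and 2 fell in mSSC against SSC, beside 8.22% of all genes higher and 10.6% lower. Id4, the fourth Id gene and a marker of spermatogonial stem cells, had levels of 8.78 and 9.22 in mSSC, 11.47 and 11.32 in iSSC, and 10.56 and 10.15 in SSC. The 3 kinds did not overlap, and Id4 was 5.27-fold lower in mSSC than in iSSC (-2.40 ± 0.26, limma adjusted p = 0.0034, called in 14 of 14 other settings). Against SSC Id4 was at -1.36 ± 0.26 in mSSC (adjusted p = 0.017), lost with probe sets averaged and without SSC replicate 1 or mSSC replicate 1. Tbx3, a T-box factor that embryonic stem cells express, was at 9.06 and 10.80 in mSSC, 6.38 and 7.27 in iSSC, and 6.26 and 5.58 in SSC. It rose by 4.01 ± 0.61 against SSC (adjusted p = 0.0087) and by 3.10 ± 0.61 against iSSC (adjusted p = 0.019). Junb (-1.79 ± 0.35, adjusted p = 0.019) and Hand2 (-1.86 ± 0.45, adjusted p = 0.035) were lower in mSSC than in iSSC. Without either iSSC array the calls of Tbx3, Junb and Hand2 against iSSC were lost, and that of Hand2 also under the replicate block, with probe sets averaged and without either mSSC array. Zfp423, a Smad cofactor, was higher in mSSC than in SSC (1.88 ± 0.41, adjusted p = 0.025), though not without SSC replicate 1 or either mSSC array. Atoh8 was lower in mSSC than in SSC (-1.16 ± 0.27, adjusted p = 0.030), in 7 of 13 other settings. The E protein Tcf4 was at 8.59 and 8.16 in mSSC, 7.60 and 7.35 in iSSC, and 9.60 and 9.14 in SSC. It fell in iSSC against SSC (-1.90 ± 0.27, adjusted p = 0.033), a call lost with probe sets averaged and without SSC replicate 1 or either iSSC array. Tcf4 was also lower in mSSC than in SSC (-0.99 ± 0.27, adjusted p = 0.049), in only 4 of 14 other settings. Tcf3 and Tcf12 passed in no comparison.

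**Figure D4:**
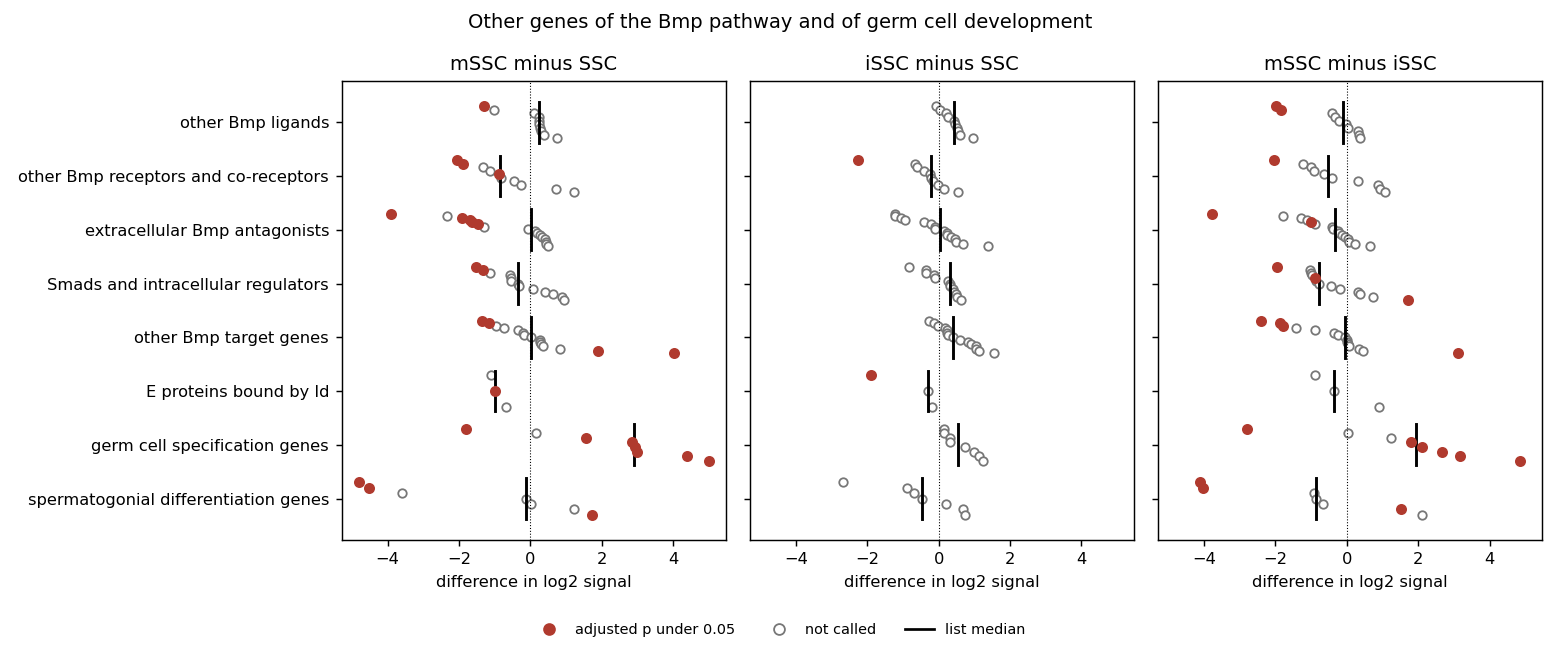
Differences in log2 signal (x axis) of the other genes of the pathway and of germ cell development, by list (y axis) and comparison; each point is a gene, filled where the adjusted p was under 0.05, and black bars are list medians. Antagonists and receptors have called genes below 0 in mSSC. Of 8 germ cell specification genes 6 lie above 0 and are called in mSSC against SSC, beside 8.22% of all genes.

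Genes that act in the specification of germ cells, a process that Bmp4 starts in the mouse embryo, were mostly higher in mSSC. Of 8 measured 6 rose and 1 fell in mSSC against SSC, beside 8.22% of all genes higher and 10.6% lower. In mSSC against iSSC 5 rose and 1 fell, beside 7.53% higher and 9.60% lower. Their median differences were 2.89 and 1.95, beside 0.08 and -0.01 over all genes. Prdm14 had levels of 7.98 and 8.97 in mSSC, 3.76 and 3.51 in iSSC, and 3.65 and 3.33 in SSC, near background outside mSSC. It rose in mSSC against SSC (limma adjusted p = 0.0010), and its difference of 4.99 is a lower limit. Tfap2c (4.40 ± 0.50), Dppa3 (2.97 ± 0.47), Ifitm1 (2.93 ± 0.47), Prdm1 (2.84 ± 0.47) and Lin28a (1.56 ± 0.33) also rose against SSC, whereas Dnd1, which binds RNA in germ cells, was at -1.81 ± 0.40 and fell. The level of Prdm1 on SSC replicate 2 was 4.58, near background. The calls of Lin28a and Dnd1 were lost without either SSC array, and also without mSSC replicate 1 for Lin28a and mSSC replicate 2 for Dnd1. Against iSSC Prdm14 kept its call in 13 of 13 other settings, while Tfap2c, Dppa3, Ifitm1 and Prdm1 lost theirs without either iSSC array. Ifitm1 also lost its call under quantile normalization and without mSSC replicate 1, and Prdm1 under the replicate block and without mSSC replicate 2. Prdm14, Tfap2c and Dppa3 are known to be expressed in pluripotent cells as well. All 8 pluripotency markers were called higher in mSSC in both comparisons. Whether the rise of any gene of this list belongs to pluripotency or to germ cell specification was not tested.

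Of 7 genes of spermatogonial differentiation 1 rose and 2 fell in mSSC against both other kinds. Over all genes 8.22% were higher and 10.6% lower in mSSC against SSC, and 7.53% and 9.60% in mSSC against iSSC. Sohlh1 was near background in mSSC (4.36 and 4.61), against 9.15 and 9.41 in SSC, so its difference of -4.80 is a limit (limma adjusted p = 0.0017). Ccnd2 fell by 4.51 ± 0.42 against SSC (adjusted p = 0.0021), and the DNA methyltransferase Dnmt3b rose by 1.73 ± 0.28 (adjusted p = 0.010). Against iSSC the call of Dnmt3b was lost without any 1 mSSC or iSSC array. Kit, the receptor that marks differentiating spermatogonia and that Bmp4 has been reported to raise in them, varied widely within a kind. Its levels were 9.66 and 10.28 in mSSC, 7.08 and 8.66 in iSSC, and 7.18 and 10.31 in SSC, and no Kit difference passed, with a 95% interval of -1.22 to 3.67 in mSSC against SSC.

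Likeness of profile was measured as the root mean square difference, in log2 units over the 6 arrays, between profiles centred on their own means. For Bmp4 the nearest genes were Tgm1 (0.19), a transglutaminase, Ltbp4 (0.23), a latent Tgf-beta binding protein, and C130073F10Rik (0.24). For Foxf1 they were Foxc2 (0.23), another forkhead gene, Tubg2 (0.44) and Ret (0.54). For Msx2 they were the forkhead gene Foxa2 (0.09), Kank3 (0.14) and Proser2 (0.16), and for Smad6 Wscd1 (0.12), Plb1 (0.18) and Lhx1os (0.19). For Id3 they were Nfkbiz (0.22), Cebpb (0.23) and Hsd11b1 (0.25), and for Id2 Dpp7 (0.13), Lmna (0.14) and Tmem154 (0.14). Among the 10 genes the closest pairs were Smad7 and Msx1 (0.34), both of narrow range, Smad6 and Msx2 (0.43), Id1 and Id2 (0.47) and Smad6 and Id1 (0.49). These distances describe 6 arrays in 3 pairs and have no p-value.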

How the data were processed

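Total RNA (10 µg) of 6 samples was amplified, labelled and hybridised to Affymetrix arrays, per the labels' protocols. The deposited values are log2 signals per probe set, made by the authors with RMA per the submitters' processing notes, which name no version here. RMA quantile-normalizes the arrays, so a shift shared by most genes would not be seen. Array medians lay between 5.83 and 5.93, and values were used as deposited. The number of arrays limits the precision.

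Of 45101 probe sets 34958 had exactly 1 gene symbol, 932 several and 9211 none in the probe table used here. Gene identifiers of 34754 matched the RefSeq table of GRCm38.p6, which changed 0 symbols. Per gene the probe set with the highest mean was kept, giving 18194 genes with no filter on low values. A group-means model over all 6 arrays was fitted with limma (3.58.1, R 4.3.3). Its 2-sided p-values were adjusted over the 18194 genes (Benjamini-Hochberg), and genes under 0.05 were called. The SE pools the spread of the 3 groups over 3 residual degrees of freedom. The fit was tested on simulated data.

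The 10 genes and the lists were chosen with earlier results of these data known. The text names all 10, list members called in a comparison or among the brightest of their list, and the nearest 3 genes for members with a range of at least 2. Bambi, Smad1, Nog and Kit were named after their values were seen. Of the 10 genes 7 had a promoter window searched. Other settings were a replicate term, a filter on dim genes, 4-array fits, other variance models, scalings and probe set rules, and leaving out each array. For any pair of kinds, leaving out an array of the third kind repeats the 4-array fit, so these settings are not separate checks.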

Additional observations from a re-analysis of the deposited data

How the results depend on the processing

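Over 447 recomputed differences of the 10 genes (3 comparisons, 14 settings and each other probe set), 391 kept their sign and their side of the threshold. With the sign kept, 28 lost a call and 9 gained one. The other 19 changed sign, and some of these lost a call as well. The 391 include differences that were uncalled before and after. Some are repeats, as leaving out an array of the third kind gives the 4-array fit again. Averaging probe sets cannot change the difference of a gene with 1 probe set. The count of all genes called in mSSC against SSC was 3425 and became 1966 on 4 arrays. With 1 array left out it lay between 1966 and 3462, lowest without either iSSC array and also changed by over 1.5 times without SSC replicate 1 (2146) or mSSC replicate 1 (2116), and the count among the 10 genes lay between 2 and 3. In iSSC against SSC the 381 calls became 148 under the replicate block and 29 with probe sets averaged, where 0 of the 10 genes were called by limma (3 at an unadjusted p under 0.05). With 1 array left out the count lay between 0 and 503. It was 0 without SSC replicate 1 (2527 at an unadjusted p under 0.05), iSSC replicate 1 (1357) or iSSC replicate 2 (2000), and among the 10 genes it lay between 0 and 1 (4 at an unadjusted p under 0.05 where it was 0). In mSSC against iSSC 3117 calls became 604 to 3724, lowest without iSSC replicate 1, with 771 without iSSC replicate 2 and 1954 without mSSC replicate 1. Of the 10 genes 2 to 5 were called, 2 without iSSC replicate 1 and 3 without iSSC replicate 2. Where an array is left out its group's lone array is assumed to vary like the others, and the fit has fewer residual degrees of freedom.

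The sign changes were as follows. Other probe sets of Bmpr1a gave 0.46 in mSSC against SSC, 0.14 and 0.32 in iSSC against SSC, and -1.18, -0.50, -0.51 and -0.72 in mSSC against iSSC, where their mean gave -0.23. Other probe sets gave 0.049 for Id2 and 0.066 for Msx2 in mSSC against SSC, and 0.30 and 0.51 for Id2 in iSSC against SSC, where the Id2 mean gave 0.14 and leaving out single arrays gave -1.09 to 0.31, positive without SSC replicate 1. Id1 in mSSC against SSC lay between -0.91 and 0.038 with single arrays left out, at 0.0005 without SSC replicate 1 and 0.038 without mSSC replicate 1. Msx1 in mSSC against iSSC was at 0.034 after quantile normalization and between -0.20 and 0.17 with single arrays left out, at 0.13 without iSSC replicate 1 and 0.17 without mSSC replicate 2. Some of these probe sets had low levels, beside a lower quartile of 4.23 to 4.38. That of Msx2 lay between 3.73 and 3.91. The Id2 probe set that gave 0.049 and 0.51 lay between 4.17 and 5.06, and the Bmpr1a probe set that gave 0.46 between 4.32 and 4.91. The Bmpr1a probe set that gave 0.14 and -1.18 was brighter, between 8.06 and 9.72. The cause of these changes was not tested.

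Replicates of different kinds share only a number in the labels. Their deviations from the group means correlated at 0.17 between mSSC and iSSC, 0.07 between mSSC and SSC and 0.12 between iSSC and SSC, across genes. With the replicate block 3428 genes were called between mSSC and SSC and 3175 between mSSC and iSSC, and the 10 genes had 3, 1 and 5 calls as without it. In iSSC against SSC Foxf1 took the place of Bmpr1a as the gene called.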
